A study of Mus musculus with 6 samples.

Results

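The Hox cluster genes of the mouse were followed in the embryonic pancreas, in single-cell RNA and in single-cell chromatin accessibility. Members were all gene symbols made of Hox, a cluster letter from a to d and a number. They made up 39 of 31028 symbols in the RNA gene list and 12 of 8269 genes in the accessibility gene list, which held only members of the HoxA and HoxB clusters, among them Hoxa3, Hoxa4, Hoxa5, Hoxa7 and Hoxb2 to Hoxb8. The embryos were C57BL/6 mice, either wild type at Ptf1a (Ptf1a+/+, here WT) or homozygous for deletion of an enhancer of Ptf1a (Ptf1aenh-delta/enh-delta, here KO). The Ptf1a protein is a transcription factor needed for pancreas development. Tissue holding multipotent pancreatic progenitors was dissected at embryonic day 10.5 (E10.5) and pooled from 5 to 9 embryos per dataset, and whole pancreas was taken at E13.5 from 6 pooled embryos per dataset. RNA was measured at E10.5, accessibility by ATAC (transposase cutting of open chromatin) at both stages, and each of the 6 groups was 1 library. With 1 library per group no test between groups was possible, and every interval below covers counting error only, at the 95% level.

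Hox genes encode homeodomain transcription factors that give cells a position along the head-to-tail axis of the embryo. They lie in clusters, numbered by paralogue group, and low-numbered genes are expressed further forward and earlier than high-numbered ones. In the gut tube the mesenchyme, the connective tissue around the epithelium, is known for Hox expression that follows this order, and retinoic acid, Cdx factors and the Polycomb and Trithorax complexes are known to control the clusters. Hox proteins often bind DNA with cofactors of the TALE class, the Pbx and Meis families.

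On GRCm38, which the submitters' processing notes name as mm10, HoxA lay on chromosome 6 (52155590 to 52260880, minus strand), HoxB on chromosome 11 (96194316 to 96368256, plus strand), HoxC on chromosome 15 (102921103 to 103036852, plus strand) and HoxD on chromosome 2 (74668310 to 74765142, plus strand). The 250 bases before the annotated start are shown for 3 of the genes with most RNA in mesenchyme, Hoxa5, Hoxb4 and Hoxb8. These windows overlapped no annotated exon. Sequences are from RefSeq (GRCm38.p6), written 5′ to 3′ on the strand of the gene. Capitals mark matches, on either strand, to 5 short motifs: TGATNNAT (Pbx and Hox bound together), TTTATNG (Cdx factors), AGGTCA (a half-site of retinoic acid receptors), CCAAT and TATAAA.
Hoxa5, chr6:52204588-52204837, minus strand: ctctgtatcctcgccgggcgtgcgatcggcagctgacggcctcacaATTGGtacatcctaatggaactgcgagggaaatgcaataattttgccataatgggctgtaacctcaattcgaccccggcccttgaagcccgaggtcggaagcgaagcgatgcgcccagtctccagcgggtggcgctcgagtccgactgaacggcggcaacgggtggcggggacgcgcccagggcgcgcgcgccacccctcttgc
Hoxb4, chr11:96318017-96318266, plus strand: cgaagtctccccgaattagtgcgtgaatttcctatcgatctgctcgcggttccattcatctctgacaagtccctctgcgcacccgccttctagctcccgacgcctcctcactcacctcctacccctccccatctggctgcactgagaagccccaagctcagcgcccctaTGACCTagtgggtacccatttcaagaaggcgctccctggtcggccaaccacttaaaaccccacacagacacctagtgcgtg
Hoxb8, chr11:96281655-96281904, plus strand: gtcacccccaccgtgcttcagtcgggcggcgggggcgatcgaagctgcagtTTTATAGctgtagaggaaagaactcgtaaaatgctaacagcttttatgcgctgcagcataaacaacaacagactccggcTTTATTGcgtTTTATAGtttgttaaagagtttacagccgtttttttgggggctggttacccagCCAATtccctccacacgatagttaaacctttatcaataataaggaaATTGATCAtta
Hoxb8 held 3 matches to TTTATNG, and the first and the last of these overlapped matches to TATAAA on the other strand. It also held 1 match to TGATNNAT and 1 to CCAAT. Hoxb4 held 1 match to AGGTCA and Hoxa5 held 1 to CCAAT. Over all 32851 promoter windows of the same length, 7.68% held TGATNNAT, 9.81% TTTATNG, 14.02% AGGTCA, 33.9% CCAAT and 12.4% TATAAA. Of the 24 windows found for 22 of the 39 Hox genes, 4, 2, 6, 14 and 4 held these motifs in the same order. A match describes the letters and not a bound site.

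The RNA libraries held 1104 (WT) and 815 (KO) cell barcodes with 4665222 and 4360076 unique molecular identifiers (UMIs, each 1 captured RNA molecule). Cells with at least 1000 genes were kept, 451 in WT and 369 in KO, and clustered with the Hox genes, Ptf1a and acinar genes left out. Clusters were named from marker lists. Ptf1a had 142 UMIs in kept WT cells and 0 in kept KO cells. The ATAC libraries held 838 WT and 700 KO cells at E10.5 and 2314 WT and 602 KO cells at E13.5. The ATAC values are a gene signal scaled to about 10000 per cell, so their depth in fragments is unknown. The E13.5 libraries carry different months in their cell names, so genotype and month cannot be told apart at that stage. WT and KO shared 1 barcode in RNA, 0 in ATAC at E10.5 and 2 in ATAC at E13.5.

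Of the 39 Hox genes in the RNA list, 14 had at least 50 UMIs over the kept cells, 11 had 1 to 48 UMIs and 14 had none. The 14 well-detected genes were Hoxa2, Hoxa3, Hoxa4, Hoxa5, Hoxa7, Hoxb2 to Hoxb8, Hoxc4 and Hoxc5. The sparse genes included Hoxa6, Hoxa9, Hoxb1, Hoxb9, Hoxc6, Hoxc8, Hoxd1, Hoxd3, Hoxd8 and Hoxd12. The undetected genes were Hoxa10, Hoxa11, Hoxa13, Hoxb13, Hoxc9 to Hoxc13, Hoxd4, Hoxd9, Hoxd10, Hoxd11 and Hoxd13, so the far end of every cluster was empty or nearly so at this depth. Exons of 8 of the 14 well-detected genes overlap another annotated gene, on the same strand for Hoxa2, Hoxa3 and Hoxc5 and on the other strand for Hoxa3, Hoxa4, Hoxa7, Hoxb2, Hoxb3 and Hoxb5. The sources used here do not give how the authors' counting treated strand, so those 8 counts may hold reads of the partner gene. Hoxa5, Hoxb4, Hoxb6, Hoxb7, Hoxb8 and Hoxc4 had no such overlap.

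Hox RNA was higher in mesenchyme-like than in epithelium-like cells in both libraries, in all 16 clusterings made without the Hox genes and when cells were sorted by marker RNA, by a factor that depended on the sorting. In the clustering reported here, 196 WT and 150 KO cells fell into 2 mesenchyme-like clusters and 180 WT and 199 KO cells into 2 epithelium-like clusters, 1 progenitor-like and 1 endocrine-like. Summed over all 39 genes, mesenchyme-like cells had 504 Hox UMIs per 1000000 UMIs (CPM) in WT (interval 468 to 542, from 723 UMIs) and 511 in KO (475 to 549, from 745 UMIs). Epithelium-like cells had 49.7 in WT (41.0 to 59.6, from 116 UMIs) and 75.3 in KO (64.9 to 87.0, from 186 UMIs). The ratio was 10.1 in WT (8.33 to 12.5) and 6.78 in KO (5.77 to 8.01).

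The clustering was taken from 32 that were tried because its cluster sizes were nearest to those of an earlier clustering of the same libraries, and Hox levels by cluster had been seen in some of them. Among the 16 that left the Hox genes out, the ratio ran from 4.55 to 10.3 in WT (median 5.03), and from 3.59 to 7.16 in KO (median 4.17). The reported WT value was the second highest of the 16 and the KO value the fifth highest. Sorting the cells by whether pan-mesenchymal or pan-epithelial marker UMIs were more numerous, with no clustering, gave 3.24 in WT (2.74 to 3.83) from 80 mesenchymal cells and 4.1 in KO (3.53 to 4.75) from 46.

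**Figure D1:**
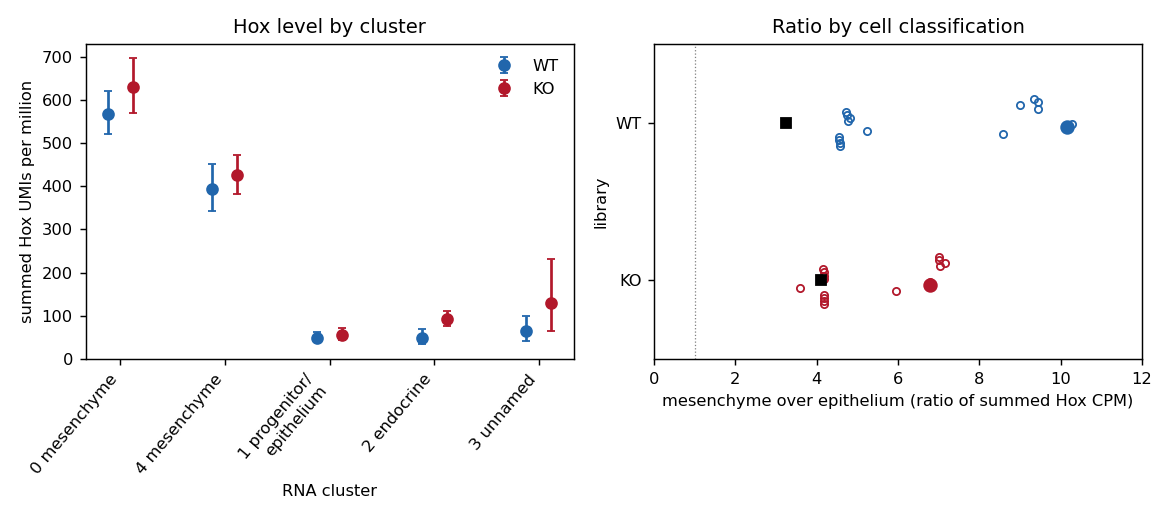
Left, summed Hox CPM in each of the 5 RNA clusters for WT and KO (points, with 95% Poisson intervals). Right, the ratio of mesenchyme-like over epithelium-like cells in each library under the 16 clusterings that left out the Hox genes (open circles, the reported one filled) and under the marker sorting (squares): all values lie above 1 (dotted line), and the reported WT value lies near the upper end of a range from 4.55 to 10.3.

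By single genes, 7 Hox genes had at least 50 UMIs in the compared WT cells and 7 in the KO cells, and all 7 were more than 2-fold higher in mesenchyme-like cells in each library (log2 ratio of CPM plus 10, from 1.42 to 2.71 in WT and from 1.30 to 2.19 in KO). Over all genes tested, 1.8% of 8057 in WT and 1.46% of 8582 in KO were past 2-fold in that direction, and 0.931% and 0.676% in the other. A Hox gene could reach 50 UMIs here mainly through the mesenchyme, so the count of 7 of 7 is a description. With 50 in place of 10 added to the CPM, 2 of 7 genes in WT and 1 of 7 in KO were past 2-fold, beside 0.41% and 0.303% of all genes. With clusters 0 and 1 alone only 3 Hox genes reached 50 UMIs in each library, and all 3 were past 2-fold, beside 2.79% of 6520 genes in WT and 1.89% of 5754 in KO. With cells thinned to 2000 UMIs no Hox gene reached 50 UMIs, so none could be counted, while 2.69% of the 2153 genes that did in WT and 2.34% of 2263 in KO were past 2-fold. Without the minimum of 50 UMIs, 21 of 22 Hox genes with any UMI were higher in mesenchyme-like cells in WT, the exception being Hoxd8 with 1 UMI, and 24 of 24 in KO. For each of the 14 well-detected genes the interval of the ratio lay above 1 in both libraries. These genes too reached their minimum mainly through the mesenchyme. The shares of all genes higher in mesenchyme-like cells, or with an interval above 1, were not counted, so these counts are also descriptions.

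**Figure D2:**
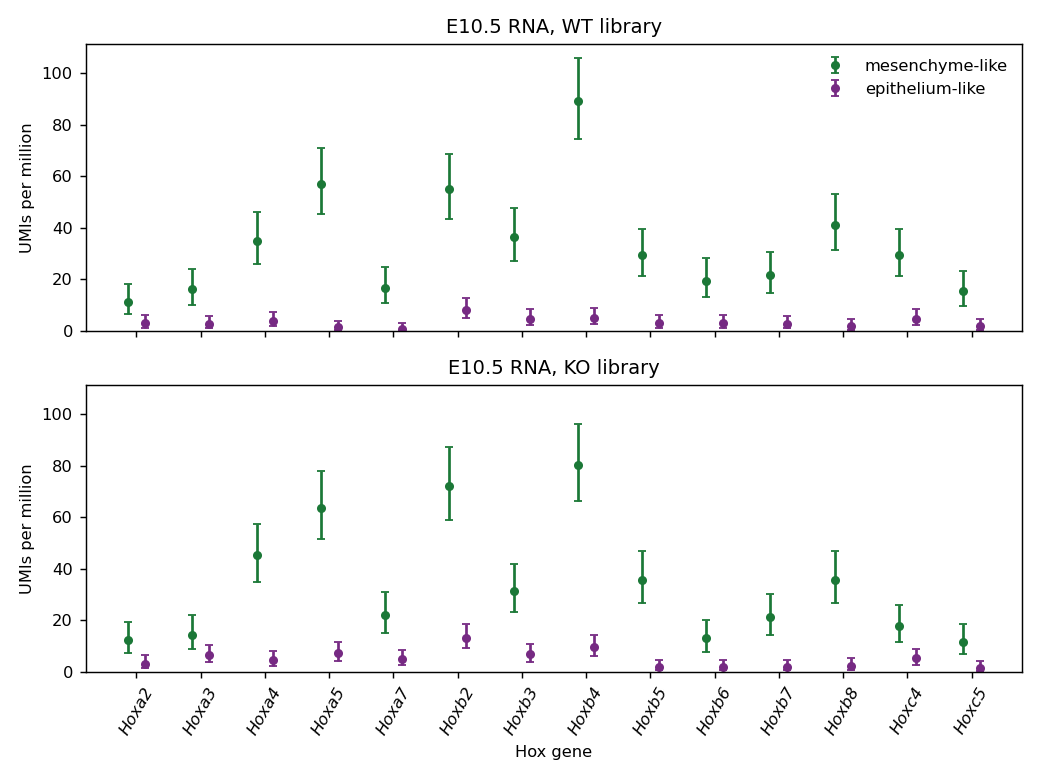
CPM of the 14 well-detected Hox genes in mesenchyme-like and epithelium-like cells of the WT (top) and KO (bottom) library, with 95% Poisson intervals. Hoxb4 is the highest point of the WT mesenchyme at 89.2, and epithelium-like points stay at or below 13.4 in both libraries.

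The anterior genes, paralogue groups 1 to 3, are known for roles in the hindbrain and pharynx. Hoxb2 was the most abundant of them in mesenchyme-like cells, with 55.1 CPM in WT and 72.0 in KO, against 8.13 and 13.4 in epithelium-like cells. Hoxb3 had 36.2 and 31.6 in mesenchyme-like cells, against 4.71 and 6.89. Hoxa3 had 16.0 and 14.4 against 2.57 and 6.48, and Hoxa2 had 11.2 and 12.3 against 2.997 and 3.24. In KO, Hoxa3 had the smallest mesenchyme ratio of the 14 genes, 2.22 (1.11 to 4.56), followed by Hoxc4 at 3.39 and Hoxa2 at 3.81.

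The central genes, groups 4 to 8, held most of the Hox RNA and also have more members than groups 1 to 3. Hoxb4 had 89.2 CPM in WT mesenchyme-like cells and 80.3 in KO, against 5.14 and 9.72 in epithelium-like cells, a ratio of 17.4 in WT (9.61 to 34.5) and 8.26 in KO (5.29 to 13.4). Hoxa5, known for its role in lung and foregut mesenchyme, had 57.2 and 63.8 against 1.28 and 7.29, a ratio of 44.5 in WT (14.7 to 220) and 8.75 in KO (5.24 to 15.4). The WT ratio rests on 3 epithelial UMIs, so its size is poorly fixed. Hoxb8 had 41.1 and 35.7 against 1.71 and 2.43, and Hoxa4 had 34.9 and 45.3 against 3.85 and 4.46. Hoxb5 had 29.3 and 35.7 against 2.997 and 2.03. The remaining central genes, Hoxa7, Hoxb6, Hoxb7, Hoxc4 and Hoxc5, lay between 11.7 and 29.3 in mesenchyme-like cells and between 0.86 and 5.27 in epithelium-like cells.

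By position, groups 4 to 8 held 71.2% of Hox UMIs in WT mesenchyme-like cells and 69.9% in KO, groups 1 to 3 held 28.1% and 29.4%, and groups 9 to 13 held 0.69% and 0.67%, or 5 UMIs in each library. Paralogue group 4 alone held 30.4% and 28.1%. By cluster, HoxB held 62.1% and 59.5%, HoxA 28.2% and 32.6%, HoxC 9.54% and 6.85%, and HoxD 0.14% and 1.07%. In epithelium-like cells groups 1 to 3 held 41.4% in WT and 43.5% in KO and groups 4 to 8 held 58.6% and 55.9%. More members belong to groups 4 to 8 than to groups 1 to 3, and these shares are not corrected for the number of genes. UMIs from a 3′ kit do not scale with transcript length, so levels of different genes are set side by side without a length correction.

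**Figure D3:**
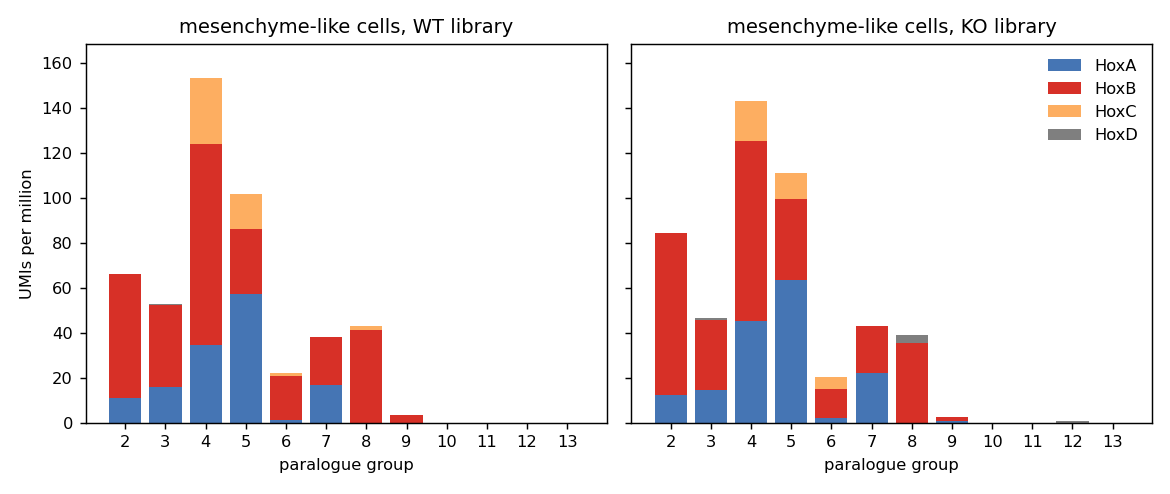
Hox CPM in mesenchyme-like cells by paralogue group (x axis, 2 to 13), stacked by cluster (HoxA to HoxD), for WT (left) and KO (right). Group 4 is the tallest bar in both libraries, and groups 9 to 13 together make up 0.69% and 0.67% of the Hox UMIs.

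Single cells carried few Hox molecules, so shares of cells depend on depth. After thinning each cell to 2000 UMIs, which left out 54 WT and 39 KO mesenchyme-like cells as too shallow, 62.7% of WT (54.2 to 70.6) and 55.9% of KO mesenchyme-like cells (46.1 to 65.3) held at least 1 Hox UMI. Among epithelium-like cells the shares were 11.4% (7.08 to 17.0) and 14.8% (10.1 to 20.6), with 4 and 3 cells left out. Unthinned, the shares were 79.1% and 87.3% of mesenchyme-like and 43.9% and 47.7% of epithelium-like cells, at median depths of 3159 and 5584 UMIs against 12574 and 10959. At least 5 different Hox genes were found in 37 WT and 46 KO mesenchyme-like cells and in 0 and 1 epithelium-like cells. Of these mesenchyme-like cells, 26 WT and 22 KO were in cluster 0, at median depths of 2524 and 2539 UMIs over the cluster, and 11 and 24 in the deeper cluster 4, at 20800 and 18703. After thinning, at least 2 Hox genes were found in 33 WT and 31 KO mesenchyme-like cells and in 1 and 3 epithelium-like cells. The most in 1 cell was 13 in WT and 11 in KO.

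Hox RNA in epithelium-like cells was set against the mesenchymal level, beside the mesenchyme markers in the same cells. Over the 7 genes compared, the epithelial level was a median 11.1% of the mesenchymal level in WT (range 2.25% to 16.1%) and 11.4% in KO (5.68% to 21.8%). The mesenchyme marker genes that passed the same minimum stood at a median 7.43% in WT (9 genes, 5.34% to 22.6%) and 9.47% in KO (10 genes, 3.17% to 46.2%). In WT Hoxa5 and Hoxb8 lay below every marker and the other 5 Hox genes lay within the markers' range, as all 7 did in KO. These 7 Hox genes reached 50 UMIs mainly through the mesenchyme, and the part of free or carried-over RNA in the epithelial Hox values was not tested.

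The 2 mesenchyme-like clusters differed in depth and in what else they carried. Cluster 0 (167 WT and 104 KO cells, median 2535 UMIs) was led by mesenchyme genes such as Barx1, Col3a1 and Nkx2-3. It also held epithelial RNA. Its pan-epithelial markers summed to 979 CPM in WT and 1557 in KO, against 2644 and 3817 in the progenitor-like cluster. Its pan-mesenchymal markers summed to 643 and 622, against 58.7 and 62.3. The part of mixed or carried-over RNA in the Hox ratios was not tested. Cluster 4 (29 WT and 46 KO cells, median 20237 UMIs) was led by Barx1, Pdgfra, Nkx2-3 and Col1a1 but also held endocrine RNA: Gcg, which encodes glucagon, stood at 16873 CPM in WT and 11241 in KO, against 190 and 107 in cluster 0 and 23883 and 17480 in the endocrine-like cluster. Cluster 0 had 568 Hox CPM in WT (520 to 620) and 630 in KO (568 to 696), and cluster 4 had 394 (342 to 451) and 426 (383 to 472). Cluster 4 was thus lower in both libraries, at 0.69 (0.59 to 0.82) and 0.68 (0.58 to 0.78) of cluster 0. In WT the interval of the ratio excluded 1 for Hoxa5 at 0.29 (0.14 to 0.55), Hoxb7 at 0.18 (0.036 to 0.59) and Hoxb2 at 1.67 (1.05 to 2.67). In KO it excluded 1 for Hoxa7 at 0.24, Hoxb3 at 0.28, Hoxc4 at 0.32 and Hoxc5 at 0.30, and no gene did so in both libraries. Past 2-fold lower among genes with at least 50 UMIs was 1 of 6 Hox genes in WT, Hoxa5, beside 2.57% of all 4788 genes, and 0 of 6 in KO, beside 2.12% of 5197. The unnamed cluster 3 (75 WT and 20 KO cells) had 65.5 (41.0 to 99.1) and 129 (64.4 to 231). Against the progenitor-like cluster alone, cluster 0 alone gave a ratio of 11.5 in WT and 11.2 in KO.

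Between genotypes, Hox RNA in mesenchyme-like cells of the reported clustering was near equal: KO over WT was 1.01 (0.91 to 1.12) for the sum. No member of the 10 with at least 50 UMIs was past 2-fold, where 0.372% of 7531 genes were past it in the higher and 0.186% in the lower direction. Single genes ran from a log2 ratio of -0.50 for Hoxc4 to 0.33 for Hoxb2, and the interval of the ratio included 1 for all 14 well-detected genes. The class held clusters 0 and 4 in different proportions, at 167 and 29 cells in WT and 104 and 46 in KO. Within cluster 0 the interval lay above 1 for Hoxb2 at 1.90 (1.23 to 2.94) and Hoxa7 at 2.10 (1.08 to 4.16). Within cluster 4 it lay above 1 for Hoxa5 at 2.54 (1.33 to 5.26, on 61 UMIs) and below 1 for Hoxc4 at 0.383 (0.138 to 0.998, on 21 UMIs). These 4 were named after their values were seen, among 14 genes in each cluster. Over the 16 clusterings made without the Hox genes the ratio for the sum ran from 1.01 to 1.34 (median 1.15). The reported value thus lay at the low end. Under the marker sorting the ratio was 1.39 (1.15 to 1.69), an interval above 1. In epithelium-like cells KO over WT was 1.52 (1.20 to 1.93), with HoxA at 2.21 (1.42 to 3.51) and HoxB at 1.34 (0.98 to 1.86). For the sum the 16 clusterings ran from 1.29 to 1.54 (median 1.45), and the reported value ranked 2 from the highest. Marker sorting gave a value below the reported interval, printed in the closing section. Hoxa5 at 5.68 (1.66 to 30.1) and Hoxa7 at 5.68 (1.26 to 52.2) had intervals above 1, from 3 and 2 UMIs in WT. The progenitor-like cluster gave 1.13 (0.81 to 1.59) and the endocrine-like cluster 1.86 (1.26 to 2.81), and the endocrine-like cluster made up 58 of 180 WT and 127 of 199 KO epithelium-like cells. Mesenchyme marker RNA in the endocrine-like cluster stood at 176 CPM in WT and 211 in KO. Its genes differed: Barx1 stood at 16.1 and 59.4, Col3a1 at 8.78 and 13.9, Nkx2-3 at 4.39 and 4.63 and Pdgfra at 11.7 and 9.26. The part of mesenchymal RNA in the Hox difference was not tested.

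Genes that work with or near the Hox clusters were compared between the same classes. Of the 10 TALE cofactor genes tested in WT, 1 was past 2-fold higher in mesenchyme-like cells, Pbx3, a DNA-binding partner of Hox proteins, at 80.9 against 30.8 CPM. The lowest was Tgif1, at 20.9 against 36.8. In KO, 2 of 9 were past 2-fold, Meis1 at 171 against 78.6 and Meis2 at 449 against 213 (named after their values were seen), and the list's median log2 ratio was 0.37 in WT and 0.46 in KO against 0.06 and 0.02 over all genes. None of 5 retinoic acid genes tested in WT was past 2-fold: Crabp1, a retinoic acid binding protein, stood at 54.4 against 29.1 and Crabp2 at 18.8 against 19.7. In KO 1 of 7 was past it, Aldh1a2, a retinoic acid synthesis enzyme named after its value was seen, at 43.2 against 2.84, and in WT it had 23.0 against 2.57 with too few UMIs for the comparison. None of 19 Polycomb and Trithorax genes was past 2-fold in either library, with Pcgf2 at 53.7 against 27.0 and Kdm6a at 25.1 against 26.5 in WT. A median above that of all genes was not particular to the TALE list. Medians in WT and KO were 0.26 and 0.35 for retinoic acid genes and 0.30 and 0.14 for Polycomb and Trithorax genes. For genes flanking the clusters they were 0.209 and 0.215. Pdx1, the pancreatic ParaHox gene and the one member of its list tested, was lower in mesenchyme-like cells, at 59.2 against 190 in WT and 36.4 against 84.7 in KO.

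Non-coding genes inside the clusters did not all follow the Hox genes. Hotairm1, antisense at the 3′ end of HoxA, had 39.7 CPM in WT mesenchyme-like cells against 14.98 in epithelium-like cells, and 25.4 against 6.48 in KO. Hoxb3os had 19.5 against 2.57 in WT and 15.1 against 7.70 in KO, and Hoxaas3 had 10.5 against 1.71 and 14.4 against 4.46. Halr1, a long non-coding RNA gene near HoxA, went the other way, with 9.76 against 21.8 in WT (ratio 0.447, 0.228 to 0.82) and 17.8 against 29.98 in KO (0.595, 0.365 to 0.941). Of 10 genes flanking the clusters, none was past 2-fold in WT, from Skap2 at 44.6 against 18.8 to Hibadh at 50.9 against 62.5.

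In the ATAC libraries no cluster was named mesenchyme-like at either stage, so the comparison of mesenchyme with epithelium could not be made there. At E10.5 all 12 Hox genes had signal, in 24.9% to 70.9% of WT cells and 28.3% to 75.6% of KO cells. Hoxa7 was highest, with a mean signal of 2.72 in WT and 2.63 in KO. Hoxa3 had 2.34 and 2.36, and Hoxb7 was lowest at 0.87 and 0.83. Across the 12 genes, ATAC signal over all cells and RNA level over all kept cells at E10.5 did not rank alike. Spearman's rho across genes was -0.16 in WT and -0.04 in KO, a description over genes that share libraries and neighbourhoods. Mesenchyme-like cells held 723 of the 861 Hox UMIs in kept WT cells and 745 of 942 in KO. The ATAC cells had no such cluster, and the part of cell mixture was not tested.

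Between genotypes at E10.5 the ATAC signal of the Hox genes over all cells was close: the median log2 of KO over WT was -0.05, with Hoxb4 lowest at -0.30 and Hoxb2 at 0.17. No Hox gene was past 2-fold, and of all 8219 genes tested 0.0% were past it upward and 0.0122% downward. In the largest E10.5 cluster alone (517 WT and 463 KO cells) the median was -0.01. In the endocrine-like cluster (63 WT and 66 KO cells) it was -0.28, and 10 of 12 genes were lower in KO. Over all genes in that cluster 50.8% were lower in KO, and the 5th and 95th percentiles were -0.615 and 0.589. There Hoxa4 stood at 0.33 in KO against 0.965 in WT and Hoxa5 at 0.54 against 1.17, both past 2-fold lower, beside 1.1% of 8210 genes. In cluster 1 (258 WT and 171 KO cells), 9 Hox genes were above 0 in enough cells to be compared, 6 of them higher in KO. Hoxb4 was past 2-fold lower there, at 0.685 against 1.37, beside 1.0% of 7788 genes.

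Within E10.5 the endocrine-like cluster had less Hox signal than the largest cluster, which stayed unnamed. All 12 genes were lower there, with a median log2 of -0.69 in WT and -1.04 in KO. Over all genes 52.7% were lower there in WT and 53.3% in KO. Their 5th percentiles were -0.776 and -0.819, so the WT Hox median lay within the range of all genes and the KO median below it. Mesenchyme markers were lower there too, 13 of 17 in WT with a median of -0.38 and 15 of 17 in KO with -0.29, and their part in the Hox difference was not tested. Hoxb4 stood at -1.51 in WT and Hoxa4 at -2.05 in KO. At E13.5 the medians of the same contrast were -0.08 in WT, where 4 of 12 genes were higher, and -1.20 in KO, where all 12 were lower. Over all genes 53.2% were lower in WT and 51.3% in KO, with 5th percentiles of -0.546 and -0.866.

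Between stages the Hox signal was lower at E13.5 for all 12 genes in both genotypes. The stages were deposited as separate tables, each scaled to about 10000 per cell, so these levels are set side by side across tables. In WT the mean signal of Hoxa3 went from 2.34 at E10.5 to 0.90 at E13.5, Hoxa4 from 1.19 to 0.48 and Hoxb4 from 1.49 to 0.65. Hoxb7 differed least, from 0.87 to 0.58. The median log2 of E13.5 over E10.5 was -1.07 in WT, and 7 of 12 genes were past 2-fold lower against 0.402% of all 8213 genes. In KO the median was -1.04, and 8 of 12 were past 2-fold lower against 3.64% of 8220 genes. Hotairm1 and Halr1, also inside or beside HoxA, were past 2-fold lower as well in both genotypes, at 2.04 to 0.77 and 1.13 to 0.53 in WT.

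**Figure D4:**
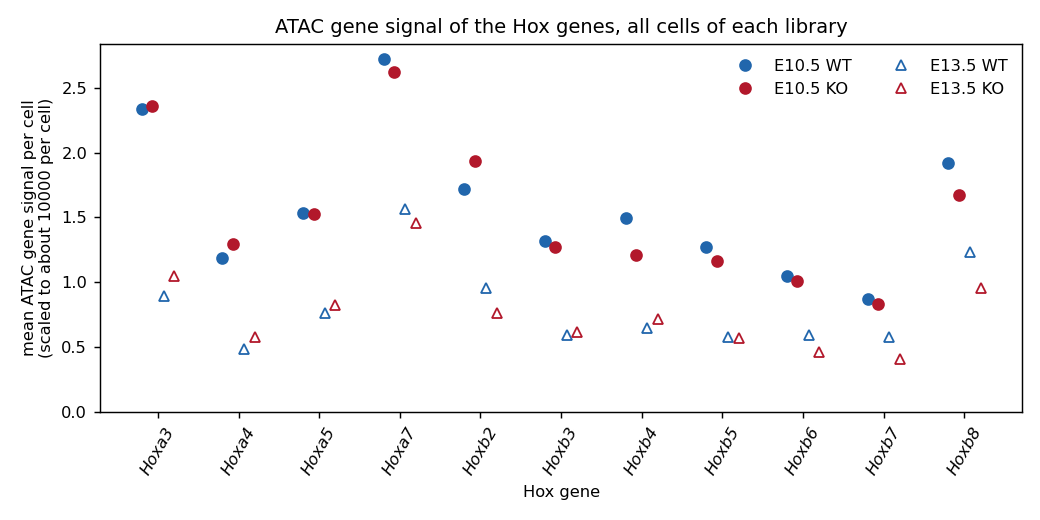
Mean ATAC gene signal per cell of 11 Hox genes in the 4 ATAC libraries, all cells (circles E10.5, triangles E13.5; blue WT, red KO; no error is drawn because each group is 1 library). For every gene shown both triangles lie below both circles.

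Cell types differed between these libraries, and the size of the stage difference varied with the cells included. A blood-like cluster, led by erythroid genes such as Slc4a1 and Tal1, was found at E13.5 only and held 140 of 2314 WT and 273 of 602 KO cells. Its summed signal over the 12 Hox genes was 0.42 in WT and 1.37 in KO, against 11.1 and 17.2 in the largest E13.5 cluster. Without it the WT median was -0.98 with 6 genes past 2-fold, beside 0.329% of all genes, and the KO median was -0.30 with 0 past 2-fold, beside 0.0972%. The tissue taken also differed between stages, and over all cells the mesenchyme markers were lower as well: in WT all 17 were lower at E13.5 with a median log2 of -0.41, and in KO 16 of 17 with -0.78. Without the blood-like cluster the marker medians were -0.35 in WT, with 16 of 17 lower, and -0.11 in KO, with 11 of 17. In the endocrine-like clusters of both stages the Hox medians were -0.46 in WT and -0.36 in KO, where the marker medians were 0.03 and 0.03 with 8 of 16 and 8 of 17 lower. Over all genes in these clusters the 5th and 95th percentiles were -0.565 and 0.61 in WT and -0.699 and 0.764 in KO. Both Hox medians lay within these ranges. The part of cell mixture in the stage difference was not tested.

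At E13.5 the comparison of genotypes changed when the blood-like cluster was left out. Over all cells the median log2 of KO over WT was 0.01, with 6 genes above and 6 below 0 and none past 2-fold, where 1.24% of 8208 genes were past it upward and 1.36% downward. Without the blood-like cluster (2174 WT and 329 KO cells) all 12 Hox genes were higher in KO, with a median of 0.67 against 0.00 over all genes, whose 5th and 95th percentiles were -0.35 and 0.39. The HoxA genes had a median of 0.94 and the HoxB genes 0.34. Hoxa4 was past 2-fold, at 1.03 in KO against 0.52 in WT, beside 0.17% of all 8227 genes. Hoxa3 stood at 1.85 against 0.95 and Hoxb4 at 1.25 against 0.69. Hoxb6 and Hoxb7 were closest, at 0.67 against 0.63 and 0.70 against 0.62.

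The same direction held in the largest E13.5 cluster alone (1067 WT and 235 KO cells), where the median was 0.62, with 3 genes past 2-fold (Hoxa3 and Hoxa4 among them), beside 0.182% of all 8228 genes. There Hoxa3 was above 0 in 81.7% of KO and 47.5% of WT cells, and the median number of genes above 0 was 5899 in KO and 4322 in WT cells. In the endocrine-like cluster (342 WT and 48 KO cells) the direction was the other: the median was -0.38 and 10 of 12 genes were lower in KO. Over all genes in that cluster 49.7% were lower in KO. Their 5th and 95th percentiles were -0.66 and 0.65, so the Hox median lay within that range. Genotype, month and depth cannot be told apart between these libraries. Mesenchyme markers without the blood-like cluster had a median log2 of 0.17, and their part in the Hox difference was not tested.

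**Figure D5:**
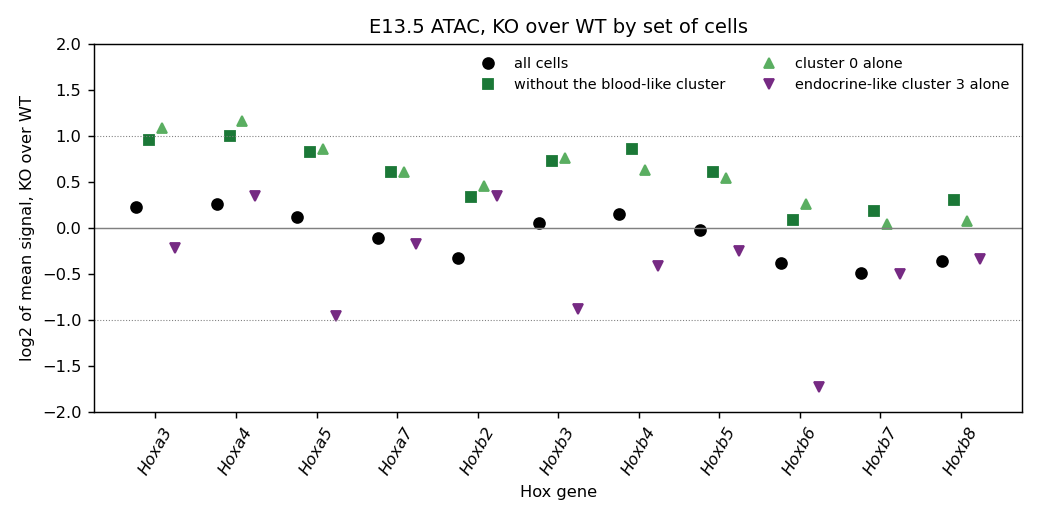
Log2 of mean ATAC signal, KO over WT, for 11 Hox genes at E13.5, in all cells, without the blood-like cluster, in cluster 0 alone and in the endocrine-like cluster 3 alone (dotted lines mark 2-fold). Without the blood-like cluster all 11 points lie above 0, with Hoxa3 and Hoxa4 highest, while the endocrine-like points lie mostly below 0.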

How the data were processed

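Single-cell RNA (2 libraries) and ATAC (4 libraries) of mouse embryonic pancreas were analysed from the deposited matrices. The RNA values are UMI counts, deposited by the authors as unnormalised whole numbers. The ATAC values are a gene signal that the authors deposited after scaling each cell to about 10000. The build is mm10 per the submitters' processing notes. The aligner, the counting and the tool behind the ATAC gene signal are not stated in the labels or files.

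RNA cells with at least 1000 genes were normalised to median depth, scaled and clustered in scanpy 1.11.5 (2000 variable genes, 30 components, 15 neighbours, Leiden resolution 0.3). Normalisation, scaling, variable-gene method and Leiden implementation were not fixed in advance. In all 32 combinations were run, 16 of them without the Hox genes, beside 2 first attempts, and the one with cluster sizes nearest to an earlier clustering was taken after Hox levels had been seen in some. The range over the 16 is reported. Members and lists were chosen with earlier results of these data known.

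A cluster was named where its list had a mean log2 ratio to other cells of 0.3 or more, 3 or more markers were raised, and no other list had more markers among its top 10 genes. UMIs were summed per library and class. Intervals are exact (Poisson, binomial or conditional, scipy 1.17.1) and cover counting error only. Gene ratios used counts per 1000000 (CPM) plus 10 for genes with at least 50 UMIs, and ATAC ratios the mean signal of genes above 0 in at least 10% of cells. Doublets were called with scrublet (2 WT and 8 KO cells) and kept. The code for intervals and calls was run on simulated Poisson sums. The intervals assume the same model, so that run says nothing of variation between cells or libraries. The text names every Hox gene with at least 50 UMIs, the ATAC Hox genes (1 is not reported here), the highest and lowest member of each partner list in WT, and cluster non-coding genes with at least 50 UMIs. Alternatives changed the cell minimum, resolution, class rule, doublets, depth, pseudocount, low-count minimum, scaling and, for ATAC, the cells and summary used. 3 were added after seeing the data: clusters 0 and 1 alone, the other 15 clusterings, and the blood-like cluster left out at E13.5 only.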

Additional observations from a re-analysis of the deposited data

Results flagged for a closer look

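RNA barcodes with fewer than 1000 genes, which entered no comparison other than the alternative with a minimum of 500 genes, held Hox RNA at 624.8 CPM (UMIs per 1000000) in WT (349 UMIs) and 643.2 in KO (224 UMIs), above the 210 and 235 of the kept cells. They are given here because they lie outside the main measurement. Mesenchyme marker RNA in these barcodes stood at 1348 CPM in WT and 1720 in KO, against 506 and 597 in the kept cells. Cluster 0 of the kept cells had marker RNA at 1334 and 1539 and Hox RNA at 568 and 630. The part of cell mixture in the difference was not tested.

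In the E13.5 ATAC libraries the median log2 of KO over WT across the 12 Hox genes was 0.615 in the largest cluster, with 12 of 12 genes above 0, and -0.377 in the endocrine-like cluster, with 10 of 12 below 0. The directions were opposite, and the difference between the clusters was not tested. Over all genes the 5th and 95th percentiles were -0.332 and 0.357 in the largest cluster. In the endocrine-like cluster they were -0.664 and 0.648, a range that held its Hox median.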

How the results depend on the processing

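No paired analysis was possible because each group is 1 library. Of 328 alternative values for the main results, 231 stayed near the reported value, 96 moved and 1 reversed a reported difference. In all, 4 values lay on the other side of no difference from the reported one: that KO stage median, the E10.5 and E13.5 genotype medians given below, which were near 0 as reported, and KO over WT in mesenchyme, at 0.935 with median-of-ratios scaling. The cause was not tested except where stated. Resolutions 0.5 and 0.8 moved none. The mesenchyme over epithelium ratio (10.1 WT, 6.78 KO) was 6.24 and 3.997 with cells of at least 500 genes, 3.24 and 4.1 with marker sums, and 11.2 in KO with clusters 0 and 1 alone. Over the unscaled clusterings it was 4.58, 4.58, 4.55, 4.55, 4.76, 4.82, 4.74 and 4.73 in WT and 4.17 in KO, and in 1 scaled clustering 5.23 and 3.59. KO over WT in mesenchyme was 1.39 with marker sums and 1.33, 1.33, 1.34, 1.34, 1.26, 1.24, 1.27 and 1.27 in the unscaled clusterings. In epithelium it was 1.102 with marker sums and 1.14 (1.135) in cluster 1 alone. With at least 500 genes, 1 Hox gene was past 2-fold between genotypes in epithelium.

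Hox genes past 2-fold in mesenchyme (7 of 7 in each library) were 0 and 0 after thinning, where none reached 50 UMIs, and 2 of 7 and 1 of 7 with a pseudocount of 50. At a minimum of 20 UMIs they were 14 of 15 in WT and 10 of 15 in KO, beside 2.24% and 1.7% of all genes. At 1 UMI they were 14 of 22 and 10 of 24, beside 1.43% and 1.09%. Under marker sums they were 5 of 7 and 7 of 7, beside 3.58% and 2.16%. With clusters 0 and 1 alone they were 3 of 3 and 3 of 3, since fewer reached 50 UMIs (2.79% and 1.89% of all genes). Partner genes past 2-fold in WT (1) were 4 with at least 500 genes, 3 with marker sums, 2 without doublets, 3 with a pseudocount of 1, 0 with 50, 4 with 20 UMIs or 1 UMI and 3 in clusters 0 and 1. In KO (4) they were 0 with a pseudocount of 50, 2 with median-of-ratios scaling and 1 in clusters 0 and 1. The HoxB share was 55.1% in KO with at least 500 genes, 66.8% in WT with marker sums and 55.0% in KO after thinning, and groups 4 to 8 held 74.8% in WT cluster 0. Cluster 4 over cluster 0 was 0.463 and 0.447 after thinning. The thinned share of mesenchyme-like cells with a Hox UMI was 71.4% and 68.9% with at least 500 genes, 71.9% in KO with marker sums and 66.2% in KO cluster 0. In epithelium-like cells it was 21.8% and 22.7% with marker sums and 10.0% in KO cluster 1.

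For ATAC, leaving out the cluster with most blood marker signal took the largest cluster at E10.5, where none was blood-like. The E13.5 genotype median was then 0.67 with 1 gene past 2-fold and 0 below 0, the WT stage median -0.60 with 1 past 2-fold, and the KO stage median 0.16, a change of sign, with 0 past 2-fold and 4 below 0. Leaving out the blood-like cluster at E13.5 only gave 0.67, 1 and 0 for genotype and -0.30 and 0 for the KO stage. The largest cluster alone gave 0.62 (0.615), 3 and 0, and -0.30 and 0. Without 10% of cells at each end of genes above 0, the E13.5 genotype median was -0.21 with 10 below 0 and the KO stage median -1.22. A pseudocount of 0.1 gave stage medians of -0.96 (-0.965) in WT and -0.93 in KO with 4 past 2-fold. With the share of cells above 0, the genotype medians were 0.12 at E10.5 with 0 below 0 and 0.37 at E13.5 with 2 below 0, and the KO stage median was -0.86 with 1 past 2-fold. The depth of the ATAC values is unknown, and at 1 library per group no alternative measures biological spread.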
